A study of Mus musculus with 2 samples.

Results

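The genes described here make cholesterol and related lipids, or control how much of them a cell makes. They were chosen by name, as 30 genes: 19 enzymes of sterol synthesis, 5 genes of the SREBP transcription factors and their regulators, 4 genes of fatty acid synthesis and 2 of sterol transport. Counted among the 19, in the mevalonate steps, is Ggps1, which makes a group for protein prenylation rather than a sterol. A gene was represented by probe sets whose only gene symbol in the platform annotation was its own, and by the one of highest mean log2 signal where it had several. Of the 30 genes, 29 had such a probe set, out of 18193 genes in all, and Acat2 had none. The 29 genes had 65 probe sets between them, and 9 genes had 1.

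Expression was measured in mouse embryonic fibroblasts, cells grown out of embryos, on 1 Affymetrix array for each of 2 genotypes. One culture was wild type and the other was homozygous for L307R in Phc2, a change in a subunit of the gene-silencing Polycomb repressive complex 1. Both were C57BL/6, were taken at embryonic day 12.5 and were used at passage 1, with no treatment named. The labels give no number of embryos behind either culture, so the 2 cultures may differ in more than genotype. There were no replicates, so no difference was tested and none has a replicate error.

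Cholesterol is built from acetyl-CoA through mevalonate, isoprenoid units, squalene and lanosterol. When sterols run low in the endoplasmic reticulum, Scap escorts the SREBP factors to the Golgi, where they are cut so that their active part can enter the nucleus and switch on the genes of the pathway. When sterols are plentiful, the Insig proteins hold Scap and the SREBP factors back. In fibroblasts this control is known to balance synthesis against cholesterol taken up from serum.

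Values are linear signals as the authors deposited them, and differences are log2 ratios of Phc2 L307R over wild type. Genes counted as measured if they passed, on either array, a floor of 94.8, the higher of both arrays' median signals. All 29 genes lay above the floor on both arrays, so none of their values at the probe sets used is a bound. Probe sets of the same gene disagreed with an SD of 0.32 in log2 ratio (5460 genes), which serves below only as a scale of size. This SD may hold more than technical error. It holds none of the error of culture, labelling or hybridisation that all probe sets of an array share. A difference larger than this SD is therefore not shown to be one between genotypes. Over all 11408 measured genes the median log2 ratio stood at 0.06. In bulk RNA, fewer cells of a type and less RNA per cell cannot be told apart.

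As a set, the pathway resembled the rest of the array. Its median log2 ratio was 0.07, and the SD of its log2 ratios was 0.33 against 0.33 over all measured genes. Of the 29 genes, 17 (58.6%) had a log2 ratio above 0, against 59.1% of measured genes. None differed 2-fold, where 0.579% of measured genes passed 2-fold upward and 0.535% downward. Within 1.2-fold of each other on the 2 arrays were 19 of the 29 (65.5%) and 62.6% of measured genes.

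**Figure D1:**
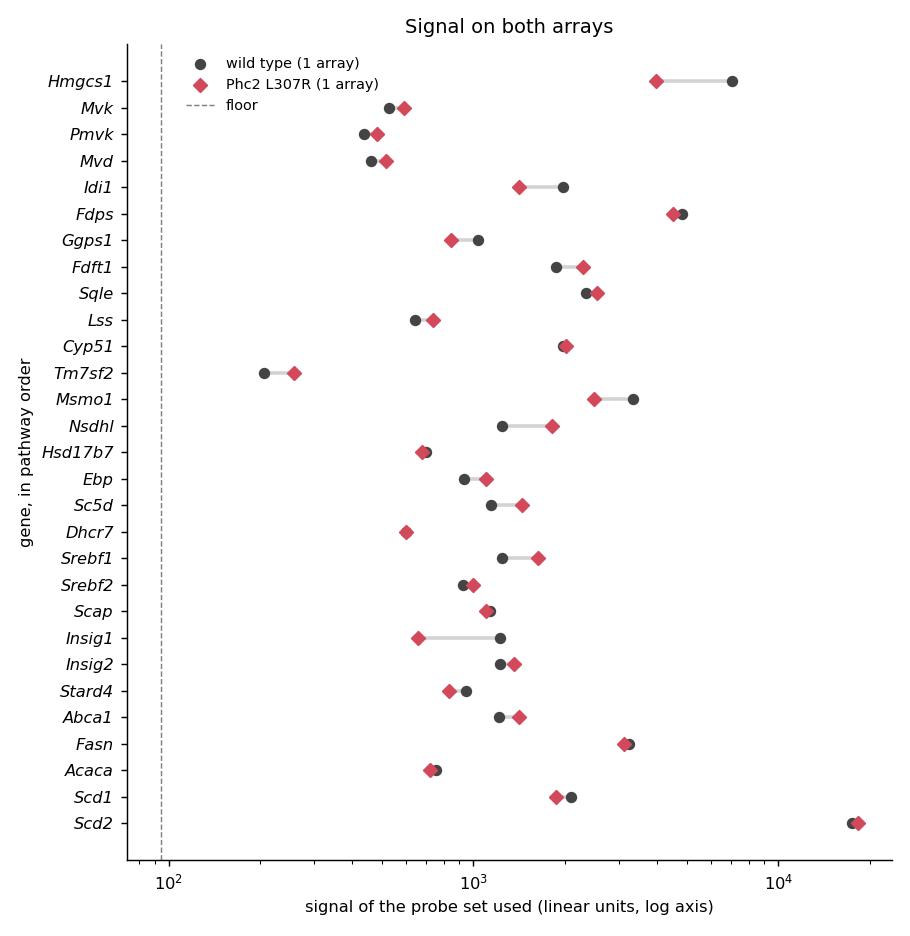
Signal of the probe set used for each of the 29 genes (log axis, linear units) in wild type (circles) and Phc2 L307R (diamonds), 1 array each, with the floor of 94.8 as a dashed line. Signals compare only within a gene; the widest gaps, with the diamond on the left, belong to Insig1 (1223.8 and 658.9) and Hmgcs1 (7067 and 3980).

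At a threshold of 1.5-fold, 2 of the 29 genes (6.90%) were lower in Phc2 L307R, against 3.25% of measured genes, and none was higher, against 4.19%. The lower ones were Insig1, which retains the SREBP factors in the endoplasmic reticulum, and Hmgcs1, the synthase that forms HMG-CoA. Idi1, the isomerase that activates the isoprenoid unit, and Msmo1, an oxidase that begins the removal of the methyl groups left on the sterol after Cyp51 has acted, came next. At the other end stood Nsdhl, an enzyme of the same demethylation steps. The 4 lowest genes and the highest were picked out after their values were seen.

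Insig1 had a signal of 1223.8 in wild-type cells and 658.9 in Phc2 L307R cells. It was 1.86-fold lower, a log2 ratio of -0.89, which only 0.85% of measured genes fell below. It has 1 probe set, so no further probe set checks this value. It lay past 1.5-fold under all 9 alternative settings, between -0.96 and -0.81. With 1 probe set and signals well above the floor, only quantile normalization, loess, centring and the floor as a pseudocount could move it.

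Hmgcs1 had a signal of 7067 in wild-type cells and 3980 in Phc2 L307R, 1.78-fold lower, at -0.83 on the log2 scale. Its 4 further probe sets were all lower too, by differing amounts. The signals were 6335 and 4362 at the first of these, a log2 ratio of -0.54, and 132.9 and 96.9, near the floor, at another, a log2 ratio of -0.46. The others gave -0.16 (4436 and 3974) and -0.14 (2172 and 1973). The direction was thus shared by 5 of 5 probe sets, while the size spanned 0.69 on the log2 scale, and with the mean over probe sets the log2 ratio was -0.42.

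Idi1 had a signal of 1968.8 in wild-type cells and 1408 in Phc2 L307R cells where the probe set used gave a log2 ratio of -0.48. The signals of the second probe set were 1218 and 687.0, a log2 ratio of -0.83. Both placed Idi1 lower by more than the SD between probe sets, and their mean of -0.66 passed 1.5-fold. Msmo1 had signals of 3337 and 2477, a log2 ratio of -0.43, and its other probe set lay below the floor on both arrays.

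The control regions of these genes are shown because the 4 genes stood lowest together. Each is the 250 bases before the annotated start of transcription, from RefSeq on build GRCm38.p6, written 5′ to 3′ along the gene's strand. Hmgcs1 lies on the plus strand (chr13:119690101-119690350), as do Idi1 (chr13:8885356-8885605), Insig1 (chr5:28071162-28071411) and Nsdhl (chrX:72918271-72918520), and Msmo1 lies on the minus strand (chr8:64733579-64733828). Nsdhl, the gene of highest log2 ratio, is given for comparison. Capitals mark matches on either strand to CACNCCA (a core of the sterol regulatory element to which SREBP binds), CCAAT (the NF-Y motif) and GGGCGG (the Sp1 motif). NF-Y and Sp1 are known partners of SREBP on promoters of this pathway.
Hmgcs1: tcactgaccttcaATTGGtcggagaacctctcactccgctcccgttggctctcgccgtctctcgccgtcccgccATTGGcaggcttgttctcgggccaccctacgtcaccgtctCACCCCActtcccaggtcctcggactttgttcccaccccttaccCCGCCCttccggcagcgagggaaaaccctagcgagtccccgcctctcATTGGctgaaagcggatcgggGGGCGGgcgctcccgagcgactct
Idi1: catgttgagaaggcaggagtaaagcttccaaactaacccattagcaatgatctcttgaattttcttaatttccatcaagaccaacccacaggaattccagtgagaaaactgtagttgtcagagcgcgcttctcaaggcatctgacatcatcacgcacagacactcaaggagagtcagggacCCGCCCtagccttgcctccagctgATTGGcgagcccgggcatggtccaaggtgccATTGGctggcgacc
Msmo1: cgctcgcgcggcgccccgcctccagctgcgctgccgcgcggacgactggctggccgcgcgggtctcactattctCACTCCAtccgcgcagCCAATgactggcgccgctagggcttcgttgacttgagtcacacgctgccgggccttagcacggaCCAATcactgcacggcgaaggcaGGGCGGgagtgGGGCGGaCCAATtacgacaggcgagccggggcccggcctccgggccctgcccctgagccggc
Insig1: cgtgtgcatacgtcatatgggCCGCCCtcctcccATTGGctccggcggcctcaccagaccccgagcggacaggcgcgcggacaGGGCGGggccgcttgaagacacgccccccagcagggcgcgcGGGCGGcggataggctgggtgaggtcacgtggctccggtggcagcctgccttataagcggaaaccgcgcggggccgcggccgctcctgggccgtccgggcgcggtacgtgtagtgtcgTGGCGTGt
Nsdhl: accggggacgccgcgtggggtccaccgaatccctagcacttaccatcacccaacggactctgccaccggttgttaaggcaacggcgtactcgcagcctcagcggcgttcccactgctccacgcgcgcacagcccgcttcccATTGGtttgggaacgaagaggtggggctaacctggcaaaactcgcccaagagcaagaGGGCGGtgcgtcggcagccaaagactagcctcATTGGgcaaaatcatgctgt

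CACNCCA stood at bases 136 to 130 before the start in Hmgcs1, at 176 to 170 in Msmo1 and, on the opposite strand, at 8 to 2 in Insig1. The windows of Idi1 and Nsdhl held no match. CCAAT stood in all 5 windows, 3 times each in Hmgcs1 and Msmo1, and so did GGGCGG. None of the marked matches overlaps another.

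RefSeq's table gave 32 such windows for 24 of the 30 genes, several genes having more than 1 start. CCAAT was in 21 of the 32 windows (65.6%), against 33.8% of all 32851 windows and 35.0% of the 11901 windows of measured genes. GGGCGG was in 23 (71.9%), against 32.7% of all windows and 58.2% of those of measured genes. CACNCCA was in 7 (21.9%), against 15.6% of both. By gene, CCAAT was found in 20 of 24, GGGCGG in 20 and CACNCCA in 6: Hmgcs1, Msmo1, Insig1, Srebf2, Insig2 and Acat2. A gene with several starts has more windows in which to match, and no share by gene was computed over all genes. The counts by gene therefore cannot be set against the shares of windows. Srebf2 and Insig2 had log2 ratios of 0.11 and 0.16 at the probe sets used, so the genes with a match lay on both sides of 0. A match describes the letters of the window and no binding was measured.

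**Figure D2:**
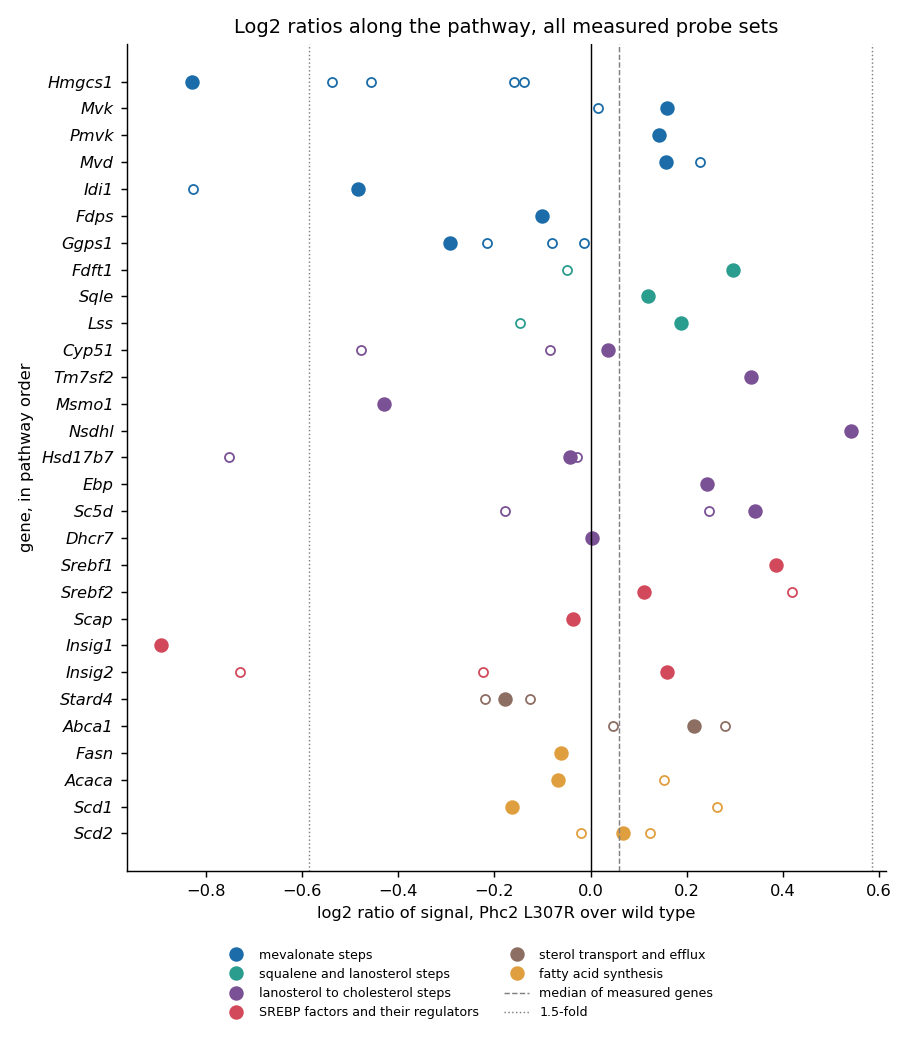
Log2 ratio of signal, Phc2 L307R over wild type, for the 29 genes in pathway order; filled points are the probe sets used, open points the further measured ones, and colours the roles. The dashed line is the median of measured genes (0.06) and the dotted lines 1.5-fold; Hmgcs1 has 5 points left of 0, and the points of Insig2 run from -0.73 to 0.16.

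The enzymes of the mevalonate steps were split. Of 7 measured, 4 were below 0 and 3 above, with a median log2 ratio of -0.10. Beside Hmgcs1 and Idi1, the lower ones were Ggps1 and Fdps. Ggps1, which makes the geranylgeranyl group for protein prenylation, had signals of 1036.5 in wild-type cells and 847.0 in Phc2 L307R, a log2 ratio of -0.29, and its 3 further probe sets gave -0.22, -0.08 and -0.01. Fdps, the farnesyl diphosphate synthase, had signals of 4831 and 4501, a log2 ratio of -0.10. Both differences were smaller than the SD between probe sets.

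The 3 consecutive enzymes that turn mevalonate into isopentenyl diphosphate differed little from each other. Mvk, the mevalonate kinase, had signals of 529.6 in wild-type cells and 591.7 in Phc2 L307R cells, a log2 ratio of 0.16, and its other probe set gave 0.01. Pmvk, the kinase that follows, had signals of 436.5 and 481.6, a log2 ratio of 0.14. Mvd, the decarboxylase, had signals of 463.1 and 516.2, a log2 ratio of 0.16, and its other probe set gave 0.23. All 3 were slightly higher in Phc2 L307R, and 35.8% of measured genes had a higher log2 ratio than Mvk.

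From squalene onward 9 of 11 enzymes had log2 ratios above 0, against 59.1% of measured genes, with a median of 0.19. The count was 7 of 11 once ratios were centred on the median of measured genes or arrays were quantile normalized. With the mean over measured probe sets it was 8 of 11, with a median of 0.12. Squalene synthase, Fdft1, had signals of 1868 in wild-type cells and 2295 in Phc2 L307R, a log2 ratio of 0.297. Its other measured probe set gave -0.05 (2104 and 2035), and under quantile normalization, which made that one the probe set used, the log2 ratio was -0.04. Sqle, the epoxidase that starts sterol formation proper, had signals of 2346 and 2548, a log2 ratio of 0.12, on 1 probe set. Lss, which closes the ring system to form lanosterol, had signals of 645.2 and 734.8, a log2 ratio of 0.19, while its other measured probe set gave -0.15 (257.1 and 232.3). The directions of Fdft1 and Lss therefore depended on the probe set.

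Among the enzymes from lanosterol to cholesterol, Nsdhl and Msmo1 stood at opposite ends although both act in the demethylation that follows Cyp51. Nsdhl had signals of 1245 in wild-type cells and 1813 in Phc2 L307R cells, 1.46-fold higher, a log2 ratio of 0.54. Its only probe set thus placed it above all but 5.36% of measured genes. Under the alternatives the log2 ratio was 0.48 to 0.54, though, as for Insig1, most of them could not move it. Sc5d, a desaturase, had signals of 1141 and 1447.5, a log2 ratio of 0.34. Its further probe sets gave 0.25 (241.5 and 286.3) and -0.18 or lower (107.2 and 82.6, the second below the floor).

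Tm7sf2, a reductase acting on the lanosterol ring, had signals of 205.0 and 258.2, a log2 ratio of 0.33. Ebp, an isomerase, had signals of 930.3 and 1100.1, a log2 ratio of 0.24. Dhcr7, the reductase of the last step of one branch, was level, with signals of 599.5 and 600.9. Tm7sf2, Ebp and Dhcr7 had 1 probe set each, and none of these differences but that of Tm7sf2 exceeded 0.32.

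Cyp51, which removes the first methyl group from lanosterol, had signals of 1962.5 in wild-type cells and 2013 in Phc2 L307R at the probe set used, a log2 ratio of 0.04. Its other probe sets gave -0.48 (908.6 and 652.3) and, near the floor, -0.08. Hsd17b7, which also takes part in demethylation, had signals of 701.1 and 680.2, a log2 ratio of -0.04, and further values of -0.03 and -0.75 (407.3 and 242.0). In both genes 1 probe set was lower by more than 0.32 and the one used was not, so that no single value describes them.

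The SREBP genes themselves were not lower. Srebf1, whose product chiefly drives fatty acid synthesis, had signals of 1243.6 in wild-type cells and 1624.6 in Phc2 L307R cells, a log2 ratio of 0.39, on 1 probe set. Srebf2, whose product chiefly drives sterol synthesis, had signals of 923.6 and 998.3, a log2 ratio of 0.11, and a second probe set, with 776.9 and 1039, gave 0.42. Scap, their escort, had signals of 1130.6 and 1102.6, a log2 ratio of -0.04. The levels of messenger RNA say nothing of how much SREBP was cut or entered the nucleus, which was not measured.

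Insig2, the second of the retaining proteins, had 3 measured probe sets of opposing direction. The one used had signals of 1219 in wild-type cells and 1361.5 in Phc2 L307R, a log2 ratio of 0.16. The others had 1146.7 and 981.7, a log2 ratio of -0.22, and 806.1 and 486.0, a log2 ratio of -0.73. The mean over all 3 was -0.26, which turned the direction. The span of 0.89 was the widest of the 17 genes with at least 2 measured probe sets.

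Stard4, a carrier of cholesterol between membranes, had signals of 943.5 in wild-type cells and 833.8 in Phc2 L307R cells, a log2 ratio of -0.18, with -0.13 and -0.22 at its further probe sets. Abca1, which exports cholesterol from the cell and is switched on by the sterol-sensing LXR receptors, had signals of 1212.9 and 1408, a log2 ratio of 0.22, with 0.28 and 0.05 at its further probe sets. Each kept 1 direction at 3 of 3 probe sets, by less than the SD between probe sets. Abca1 is the only one of the 29 genes on the chromosome of Phc2, chromosome 4, with 269 measured genes counted from one to the other.

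The fatty acid genes differed little. Fasn, the fatty acid synthase, had signals of 3243 in wild-type cells and 3108 in Phc2 L307R, a log2 ratio of -0.06. Acaca, which forms malonyl-CoA, had signals of 756.3 and 721.4, a log2 ratio of -0.07, and its other probe set gave 0.15. Scd1, a desaturase of fatty acids, had signals of 2084 and 1862, a log2 ratio of -0.16, and 0.26 at its other probe set.

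Scd2, a close relative of Scd1 that lies beside it on chromosome 19, had signals of 17375 and 18199, a log2 ratio of 0.07, with 0.12 and -0.02 at its further probe sets. Probe sets of such related genes may bind each other's transcripts, so the values of Scd1 and Scd2 are uncertain. No probe set of the 4 fatty acid genes differed by more than the SD between probe sets.

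Counted by probe set, the lower values were somewhat more frequent. Of 58 measured probe sets of the 29 genes, 5 were at least 1.5-fold lower (8.62%), against 4.79% of the 20737 measured probe sets of all genes, and none was at least 1.5-fold higher, against 3.87%. The 5 belonged to Hmgcs1, Idi1, Insig1, Insig2 and Hsd17b7, 1 each. The median over the 58 was -0.03, against 0.03 over all. Probe sets of 1 gene share their transcript and are not independent.

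Of the 17 genes with at least 2 measured probe sets, 5 were lower at every one (29.4%, against 19.9% of all such genes): Hmgcs1, Idi1, Ggps1, Hsd17b7 and Stard4. Another 4 were higher at every one (23.5%, against 25.5%): Mvk, Mvd, Srebf2 and Abca1. The remaining 8 were mixed.

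**Figure D3:**
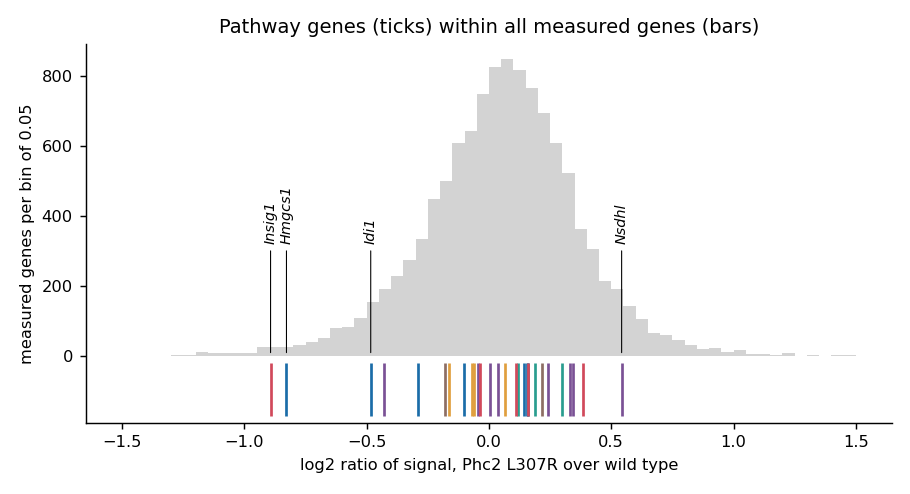
Log2 ratios of the 29 genes (ticks, coloured by role as in the plot in pathway order) below a histogram of all measured genes in bins of 0.05; 19 measured genes beyond 1.5 on the log2 scale lie outside the axis. Most ticks lie under the bulk of the histogram, and Insig1 and Hmgcs1 lie in its lower tail.

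Other genes of sterol and isoprenoid metabolism were taken from 5 further lists, 46 genes of which 41 had a probe set and 39 were measured. Of the 39, 29 were above 0 and 10 below, with a median log2 ratio of 0.09, and 20 were above 0 in ratios centred on the median of measured genes. None was 2-fold different and 1 was past 1.5-fold. That gene was Fntb, a subunit of the enzyme that attaches farnesyl groups to proteins, with signals of 241.1 in wild-type cells and 395.9 in Phc2 L307R cells, a log2 ratio of 0.72.

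The genes that cut the SREBP factors or help to degrade proteins of the pathway were almost level. All 7 measured of 8 were above 0, with a median of 0.05, and 3 of 7 were above 0 in centred ratios. Rnf139, a ubiquitin ligase, was highest at 0.27, followed by Mbtps1, the protease that makes the first cut, at 0.20 and Pgrmc1 at 0.11. The further measured probe sets of Mbtps1 gave -0.15 and, near the floor, 0.10 or more, so its direction depended on the probe set. Mbtps2, the protease of the second cut, was at 0.01.

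Further genes of fatty acid synthesis had a median of 0.04 over 9 measured of 10. Elovl6, which lengthens fatty acids, was at -0.29, and lower at all 3 of its measured probe sets (-0.45 and -0.30 at the others). Elovl5, a related enzyme, was at 0.26 (0.03 at its other measured probe set) and Mid1ip1, an activator of acetyl-CoA carboxylase, at 0.18. No gene of this list passed 1.5-fold.

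The isoprenoid branches had a median of 0.02 over 9 measured of 10, from -0.34 to 0.72. After Fntb, the largest differences were in Pdss2, which takes part in the side chain of coenzyme Q, at 0.40 on 1 probe set, and Pggt1b, a subunit of a geranylgeranyl transferase, at -0.34. The 4 measured probe sets of Pggt1b lay on both sides of 0, from -0.45 or lower to 0.10.

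The list of LXR receptors and targets had a median of 0.19 over 5 measured of 8. Neither LXR receptor was measured: Nr1h2 had no probe set, and Nr1h3 lay below the floor on both arrays (65.5 and 88.6). Lpcat3, a phospholipid-remodelling enzyme, was at 0.31 and Mylip, a ligase that lowers lipoprotein uptake, at 0.19. Rxra, the partner of the LXR receptors, was at 0.29 (0.10 at its other measured probe set). Genes of sterol uptake, storage and trafficking had a median of 0.12 over 9 measured of 10. Lrp1, a lipoprotein receptor, was at 0.45 (and -0.36 at a probe set near the floor), Lipa, the lysosomal lipase, at 0.38 (0.12 and -0.11 at its others), and Vldlr, the very low density lipoprotein receptor, at -0.33. The further probe sets of Vldlr gave -0.28, -0.42 and, near the floor, 0.63 or more. No gene of these 2 lists reached 1.5-fold at the probe set used.

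**Figure D4:**
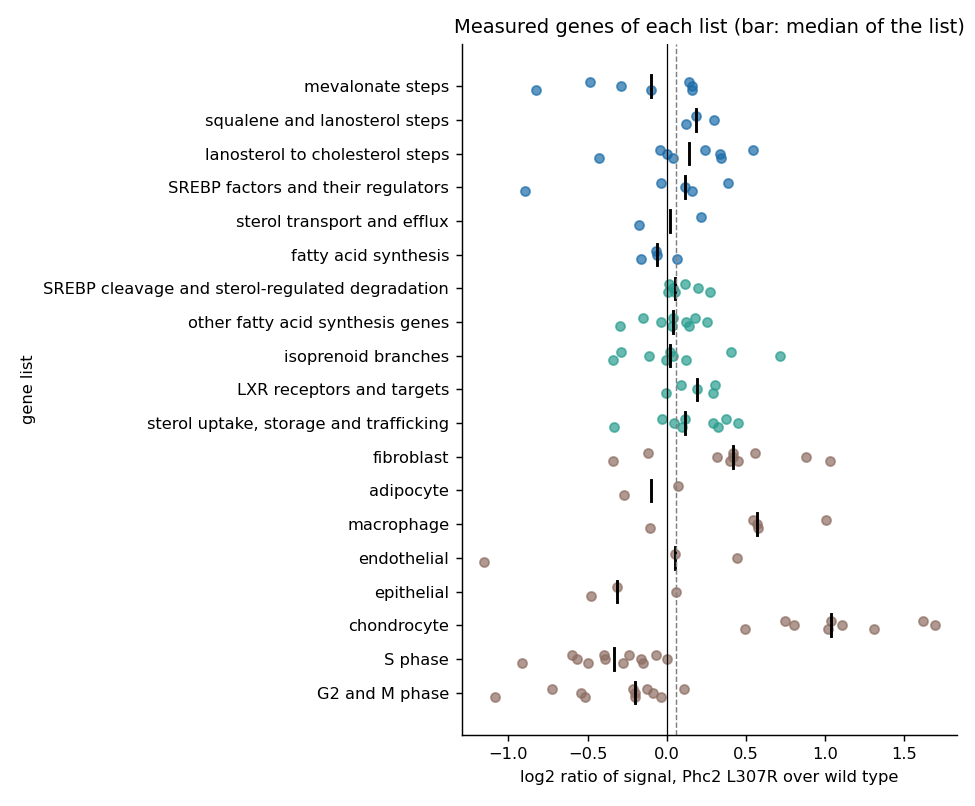
Log2 ratio of each measured gene (points) in the roles of the 29 genes, in 5 lists of other pathway genes and in the marker lists; black bars are medians and the dashed line is the median of measured genes, 0.06. The pathway lists have medians between -0.10 and 0.19, while chondrocyte markers have a median of 1.04 and S phase genes one of -0.33.

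The cultures had the markers of fibroblasts: all 10, among them Col1a1, Col3a1 and Vim, were measured, at a median log2 ratio of 0.42 (0.21 under quantile normalization). Of the 10, 8 were higher and 2 lower, Pdgfrb at -0.34 and Pdgfra at -0.12, both with further probe sets above 0. Among the higher ones, Vim (0.42) had -0.22 and -0.02 at its further probe sets, and Fn1 (0.42) had -0.33. The further measured probe sets of Col1a1, Col1a2 and Col3a1 were above 0. Of 7 hepatocyte markers with a probe set, a cell type that makes much cholesterol, none was measured, with summed signals of 238 in wild-type cells and 194 in Phc2 L307R. Of 7 adipocyte markers 2 were measured, Fabp4 at -0.27 (-0.83 at its other measured probe set) and Lpl at 0.07 (0.05 at its other). Summed signals were 1234 and 1246, while Adipoq, Lep and the others with a probe set lay below the floor on both arrays. Cell cycle genes were mostly lower in Phc2 L307R, where 40.9% of measured genes lay below 0. S phase genes had a median of -0.33, with 11 of 12 lower (Ccne2 at -0.91) and summed signals of 41777 and 35683. Of the G2 and M phase genes, 10 of 11 were lower, with a median of -0.20 (Nuf2 at -1.08) and summed signals of 28530 and 24059.

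All 9 chondrocyte markers were higher, with a median of 1.04 (Cnmd at 1.69 or more, its wild-type signal being below the floor) and summed signals of 5837 and 9322. Of 8 macrophage markers 5 were measured, 4 of them higher, with a median of 0.57 and summed signals of 721 and 1060. C1qa, C1qb and Ptprc lay below the floor on both arrays. Wild-type signals of the 5 ran from 102.1 to 162.6, near the floor of 94.8, and their median was 0.36 with the floor as a pseudocount. Laptm5 was at 1.00 (-0.06 or lower at its other measured probe set), Csf1r at 0.57 and Cd68 at -0.11. Of 6 endothelial markers 3 were measured, Emcn at -1.15, Kdr at 0.05 and Tek at 0.44 or more, with a median of 0.05 and summed signals of 644 and 590. Of 6 epithelial markers 3 were measured, Krt18 at -0.48, Krt5 at -0.31 and Krt8 at 0.06, with a median of -0.31 and summed signals of 1205 and 941. The further measured probe sets of Krt8 gave 0.02 or more and -0.34 or lower. The part of the cell cycle genes and of cell makeup in the values of the pathway was not tested.

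**Figure D5:**
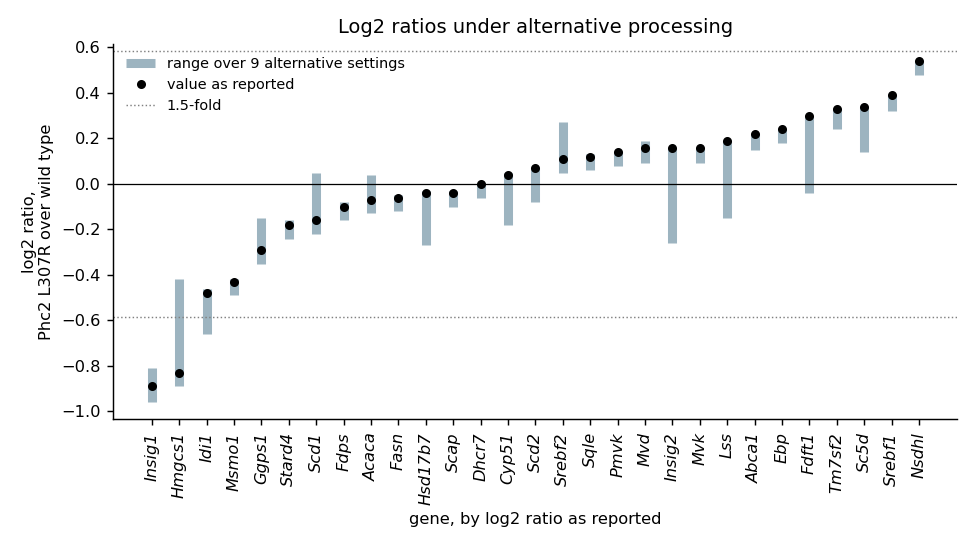
Log2 ratio of the 29 genes, ordered by the value as reported (points), with the range over 9 alternative settings (bars) and 1.5-fold as dotted lines. Insig1 stays below the lower dotted line throughout, the bar of Hmgcs1 runs from -0.89 to -0.42 and that of Idi1 from -0.66 to -0.46, and the bars of several genes near 0 cross it.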

How the data were processed

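RNA of 2 fibroblast cultures, 1 per genotype, was hybridised to 1 array each. The authors deposited linear signal intensity values for 45101 probe sets. They were made with MAS5 in Affymetrix Expression Console, per the submitters' processing notes. How they were scaled is not stated in those notes, and in the values the mean of each array, with 2% trimmed at each end, was 500.0. No detection calls were used. The 64 control probe sets were left out. Symbols came from the platform annotation, updated through a RefSeq gene table (GRCm38.p6), where 34741 of 34945 probe sets with 1 symbol matched. Signals were taken to log2 and raised to the floor of 94.8 where lower. With 1 array per genotype, genes were counted by size at 2-fold and 1.5-fold, and the number of arrays limits the precision. Every gene of the 30 with a probe set was named; of each further list, up to 3 measured genes of largest absolute log2 ratio, and others for their role after their values were seen. The genes and lists were chosen with earlier results of these data known. Motifs were searched in RefSeq promoter windows. Calculations used Python with numpy, pandas and statsmodels and were tested on simulated arrays.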

Additional observations from a re-analysis of the deposited data

How the results depend on the processing

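The 9 alternatives were quantile normalization, loess (span 0.4, 3 iterations), centring, a floor at the 40th or the 60th percentile, none at all, the floor as a pseudocount, the mean over measured probe sets, and leaving out _x_at and _s_at probe sets, whose probes may bind transcripts of several genes. The counts at 2-fold and 1.5-fold were the same under all 9. The mean over probe sets, however, put Idi1 (-0.66) past 1.5-fold in place of Hmgcs1 (-0.42). The median of the 29 genes ranged from 0.00 to 0.07. Of 261 values of single genes, 4 moved by more than 0.32: Hmgcs1 and Insig2 (-0.26) with the mean over probe sets, Fdft1 (-0.04) with quantile normalization, and Lss (-0.15) without _x_at and _s_at probe sets. In 21 genes the sign was the same under all 9; Acaca, Cyp51, Dhcr7, Fdft1, Insig2, Lss, Scd1 and Scd2 reached or crossed 0 under at least 1. All 29 genes lay above the floor on both arrays, so the floors test their values little, and the mean over probe sets cannot test a gene with 1. No paired analysis was possible because each genotype has 1 array, and no array could be left out.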
